A study of Homo sapiens with 12 samples.

Results

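The genes described here are 42 that encode lysosomal enzymes and lysosomal membrane proteins, taken by their symbols from a table of 19973 genes. They comprise 11 proteases, 7 membrane proteins, 16 glycosidases and sulfatases and 8 lipid enzymes and carriers, and every one of the 42 was found in the table. RNA was sequenced from H460 and A549, human non-small cell lung carcinoma (NSCLC) lines, either non-treated (control) or exposed to isovalerylspiramycin I (ISP-I), a macrolide antibiotic, at 10 µM for 48 h. Every group carries the genotype label WT, although the study describes both lines as homozygous for inactivating KEAP1 mutations, so controls and treated cells shared this background. Each of the 4 groups had 3 libraries, and whether the control cells received the solvent is not stated for these libraries. The study states for its data in general that they came from independent experiments, but no source says so of these libraries, so p values measure the spread between these libraries, which may be technical.

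Lysosomes are acidic compartments in which hydrolases take apart proteins, glycans, glycoconjugates and lipids delivered by endocytosis and autophagy. Most hydrolases are soluble glycoproteins that carry a mannose 6-phosphate tag from the Golgi to the lysosome, while the membrane holds heavily glycosylated proteins, channels and exporters. Transcription factors of the MiT family (TFEB, TFE3 and MITF) bind a palindromic E-box, the CLEAR motif, at many of these genes. Loss of single enzymes causes the lysosomal storage diseases, and in many cells lysosomes take up weakly basic drugs.

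The values were FPKM, fragments counted per gene, scaled by gene length and library total, and whole reads could be recovered from them. Depth was 14225849 to 17874422 reads on genes per library. Within groups, the chi-square per degree of freedom between pairs of libraries, which is near 1 for read sampling alone, was 2.95 to 92.0. ISP-I library 3 of H460 (54.4 and 92.0 against the other libraries of its group) and control library 3 of A549 (26.7 and 30.8) stood apart, and values without them are given where they matter. Libraries are numbered by their place within a group. In each line, log2(FPKM + 1) was compared with limma over genes averaging at least 0.1 FPKM, with Benjamini-Hochberg adjustment over all genes tested, and a member was counted as higher or lower at an adjusted p under 0.05. The added 1 draws the changes of genes near or under 1 FPKM toward 0, so ratios of mean FPKM are given too. Counts and lists past 2-fold use the log2(FPKM + 1) scale. FPKM is a share of the library, and less RNA per cell cannot be told apart from a smaller share.

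In untreated cells, the lysosomal genes spanned a wide range. Group means ran from 0.0828 to 221 FPKM in H460 (median 7.77) and from 0.0486 to 277 FPKM in A549 (median 7.25), and 39 of 42 had at least 1 FPKM in each line. PSAP, the precursor of the saposins that help lysosomal enzymes reach their lipids, had the highest level in each line, 221 ± 12.1 FPKM in H460 and 277 ± 23 in A549 (mean ± SD, n = 3). Cathepsin L (CTSL, 179 ± 1.86), cathepsin Z (CTSZ, 134 ± 8.25) and the tetraspanin CD63 (107 ± 3.59) came next in H460, whereas in A549 CD63 (128 ± 25.9) and CTSZ (68.3 ± 6.16) were ahead of CTSL (45.3 ± 0.435). The order between genes rests on the length by which counts were divided. The table's gene length was 1.0 to 13.3 times that of the MANE Select transcript (median 1.86), and rescaling to the latter lowered the share of PSAP in the summed level from 20.5% to 9.54% in H460 and from 31.2% to 18.5% in A549. It also put CTSL and CTSC ahead of PSAP in H460 controls, while PSAP stayed first in A549. CLN3, the membrane protein lost in Batten disease, lay near the detection floor, at 0.106, 0.0805 and 0.0616 FPKM in H460 controls, where 3 reads stood for 0.0171 to 0.0215 FPKM. All bases of its MANE transcript also lie in exons of another gene on the same strand, as do 90.7% of those of IDS and 62.1% of those of CTSD, and how the authors counted reads over shared bases, or whether by strand, is not stated.

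The control groups of the lines differed in most members. Of 41 tested, 15 were higher and 16 lower in H460 than in A549 (27.1% and 30.4% of all genes tested), 4 in each direction past 2-fold (5.47% and 8.5% of all genes). Library ranges did not overlap for 15 members that were higher and 17 that were lower (30.6% and 32.7% of all genes). Cathepsin C (CTSC), a dipeptidyl peptidase that activates serine proteases, had 33.6, 31.3 and 27.7 FPKM in H460 controls and 3.64, 3.84 and 3.92 in A549 controls. Its lines were far apart, with an 8.13-fold higher mean in H460 (log2 change 2.73, SE 0.08, limma adjusted p = 3.35e-11). CTSL (log2 difference 1.96), PPT1 (1.51) and GLA (1.28) were also more than 2-fold higher in H460, while TPP1 (-1.73), NPC2 (-1.31), CTSH (-1.28) and GAA (-1.09) were lower (limma adjusted p from 1.6e-09 to 0.00103). By the ratio of means, the low CTSH (0.144 FPKM in H460, 1.77 in A549) was 12.3-fold lower in H460. Among other low genes that passed, HEXA (3.62-fold) and IDUA (2.73-fold) were also more than 2-fold lower by this ratio, and CTSO was 2.3-fold higher. Any difference in handling between the lines cannot be told apart from the lines themselves.

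After ISP-I, falls outnumbered rises among the lysosomal genes in each line, as they did among all genes in H460 but not in A549. In H460, 12 members were higher and 21 lower of 41 tested, against 27.6% and 41.5% of all genes tested, and 8 did not pass. Past 2-fold on the log2(FPKM + 1) scale, 5 were higher (CTSA, TPP1, CD63, MCOLN1 and NEU1) and 10 lower (CTSC, CTSZ, SCARB2, GLB1, GAA, FUCA1, ARSA, GM2A, LIPA and PPT1), where 10.5% and 15.2% of all genes passed. By the ratio of means, HEXA (2.34-fold) and SMPD1 (2.09-fold), both of which passed, also rose more than 2-fold. ASAH1 (2.53-fold), IDUA (2.31-fold) and MAN2B1 (2.2-fold) fell by more than 2-fold on that measure. The ranges of control and treated libraries did not overlap for 13 members that were higher and 23 that were lower (29.6% and 43.1% of all genes). The median log2 change was -0.34 over the members and -0.15 over all genes. Scaling by median-of-ratios raised the median of all genes by 0.16 and the share of rises among all calls from 40.0% to 51.8%, and under it 14 members were higher and 18 lower.

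In A549, 10 members were higher and 21 lower of 41 tested, beside 30.5% and 27.0% of all genes, and 10 did not pass. Past 2-fold on the log2(FPKM + 1) scale, CD63 and NEU1 were higher and GAA, FUCA1 and LIPA lower (4.2% and 3.51% of all genes passed in these directions). By the ratio of means, CTSF (2.15-fold) and GM2A (2.06-fold) also fell more than 2-fold. Ranges did not overlap for 14 members that were higher and 22 that were lower (34.8% and 30.7% of all genes). The median log2 change was -0.24 for the members and 0.02 for all genes. The rises rested in part on small changes. Without ISP-I library 1 or without ISP-I library 3 of A549 only 6 of the 10 passed, and the 4 lost were CTSB, IDS, IDUA and SGSH.

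By class, the medians in H460 were -0.29 for proteases, 0.60 for membrane proteins, -0.59 for glycosidases and sulfatases and -0.65 for lipid enzymes and carriers. In A549 they were -0.24, 0.05, -0.43 and -0.44 in the same order. Of the membrane proteins, H460 had 5 of 7 higher with 1 lower, A549 had 2 of 6 tested higher with 1 lower. Of the 16 glycosidases and sulfatases, H460 had 3 higher and 11 lower, A549 had 5 higher and 9 lower. For the 8 lipid genes the counts were 2 higher with 5 lower (H460) and 1 higher with 5 lower (A549). For the proteases they were 2 higher with 4 lower of 10 tested (H460) and 2 higher with 6 lower of 11 (A549). Of all genes tested in H460, 27.6% rose while 41.5% fell, with a median of -0.15. The corresponding A549 values were 30.5% rising, 27.0% falling and a median of 0.02. Protease shares in H460 (20.0% rising, 40.0% falling) did not exceed those of all genes. The A549 median of the membrane proteins was close to that of all genes.

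**Figure D1:**
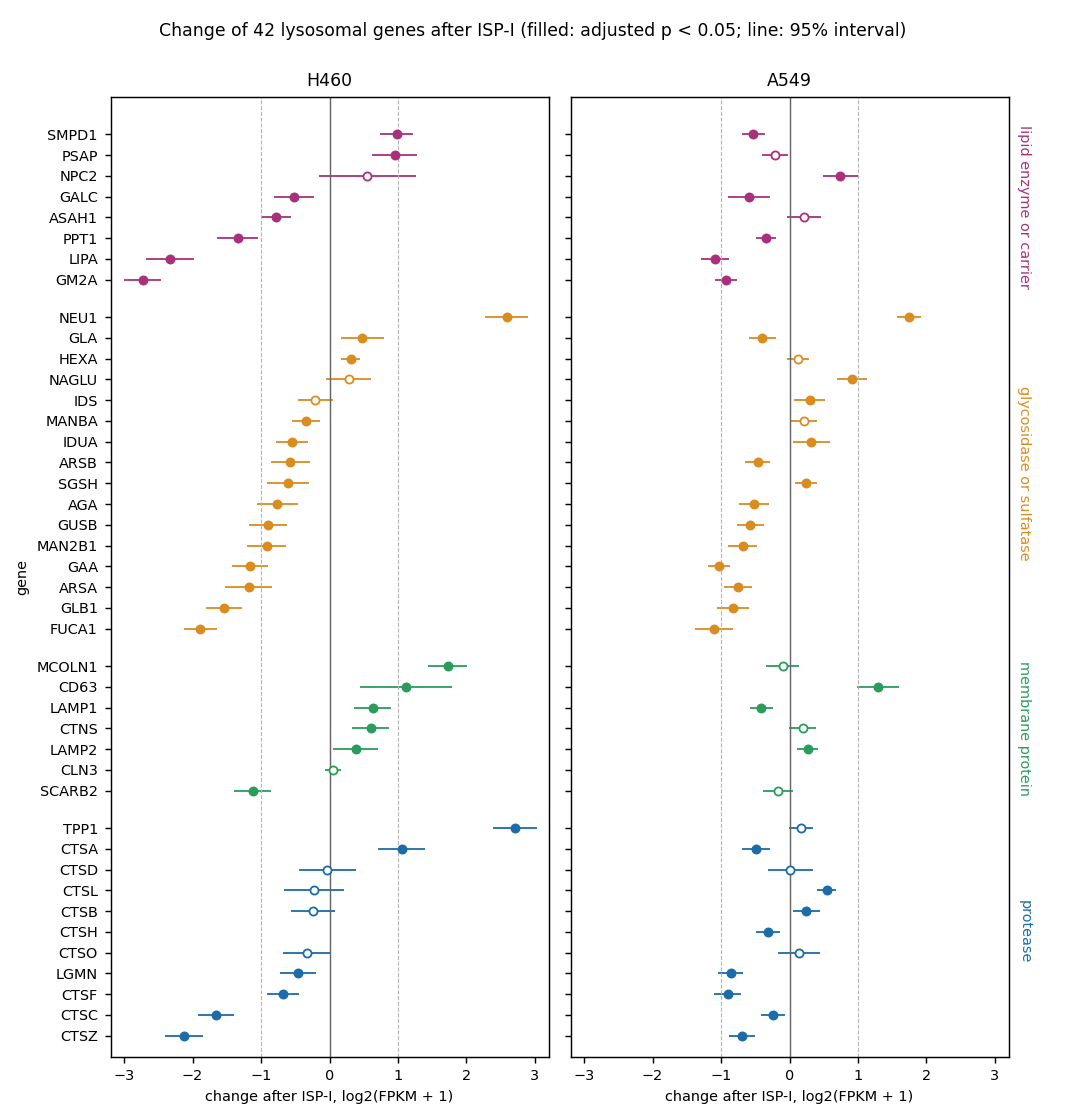
Change after ISP-I of each lysosomal gene on the log2(FPKM + 1) scale in H460 (left) and A549 (right), grouped by class, with 95% confidence intervals. Filled points passed an adjusted p under 0.05, dashed lines mark 2-fold, and CTSH in H460 and CLN3 in A549 have no point because they were below the filter. The membrane proteins lie mostly right of 0 in H460, and most glycosidases left of 0 in each line.

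Among the proteases, TPP1 rose most and the cathepsins CTSZ and CTSC fell most in H460. TPP1 (chr11:6612768-6619448, hg38), a tripeptidyl peptidase lost in a childhood ceroid lipofuscinosis, had 1.11, 1.34 and 1.36 FPKM in the H460 controls and 12.8, 16.7 and 12.3 FPKM after ISP-I. The H460 groups lay far apart, the mean being 11-fold higher (log2 change 2.71, SE 0.14, limma adjusted p = 1.21e-06). In A549 it had 6.59, 6.02 and 7.06 FPKM in controls and 7.57, 7.44 and 7.41 after ISP-I. Those groups did not overlap either but were close, and the change did not pass (0.17, adjusted p = 0.0956), although it did without control library 3 (0.22, adjusted p = 0.0123). The treated H460 libraries thus exceeded the A549 libraries, whereas the H460 controls had been 5.16-fold below the A549 controls.

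Protective protein/cathepsin A (CTSA, chr20:45890144-45898824) is a carboxypeptidase that also stabilises beta-galactosidase and the sialidase NEU1. Its levels were 11.5, 11.9 and 13.1 FPKM in H460 controls and 24.6, 22.6 and 32.5 FPKM after ISP-I. It rose 2.18-fold without overlap, with ISP-I library 3 the highest (log2 change 1.05, SE 0.15, limma adjusted p = 0.000287). Without that library the log2 change was 0.90, below 2-fold, with an adjusted p of 5.47e-05. A549 gave 6.86, 6.56 and 8.01 FPKM in controls and 4.91, 4.81 and 4.59 after ISP-I. Every treated A549 library was below every control there, a 1.5-fold fall (log2 change -0.49, SE 0.09, limma adjusted p = 0.00166).

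CTSZ (chr20:58995185-59007254), a carboxypeptidase, fell in each line. H460 controls had 138, 139 and 124 FPKM and treated H460 cells 31.8, 27.2 and 30.4. This was a 4.48-fold fall with no overlap (log2 change -2.13, SE 0.12, limma adjusted p = 1.89e-06). A549 had 62.9, 67.1 and 75 FPKM before and 40.4, 44.5 and 40.3 after ISP-I, again without overlap but 1.64-fold (log2 change -0.70, SE 0.08, limma adjusted p = 0.000199). CTSC (chr11:88265069-88359684), the member with the largest control difference between the lines on the log2(FPKM + 1) scale, dropped to 9.43, 8.88 and 8.84 FPKM in H460. All treated libraries were close together and 3.41-fold below the controls (log2 change -1.66, SE 0.11, limma adjusted p = 4.7e-06). From its low level in A549 it went to 2.88, 3.24 and 3.09 FPKM, 1.24-fold lower (log2 change -0.24, SE 0.08, limma adjusted p = 0.0273), a call lost without control library 2 (adjusted p = 0.0684), without ISP-I library 1 (0.101) and without ISP-I library 3 (0.0753).

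Cathepsin F (CTSF) and legumain (LGMN), an asparaginyl endopeptidase that processes cathepsins, had the largest protease falls in A549. CTSF went from 6.19, 6.58 and 7.33 FPKM to 3.03, 3.3 and 3.0 in A549 and from 3.6, 3.55 and 3.6 to 2.01, 1.71 and 1.86 in H460. Its groups were separate in each line, with falls of 2.15-fold (-0.90, adjusted p = 5.4e-05) and 1.93-fold (-0.68, adjusted p = 0.000363). LGMN had 12.7, 14.4 and 15.3 FPKM in A549 controls and 7.14, 7.52 and 7.3 after ISP-I, and 13.3, 14.4 and 12.2 and 10.2, 9.28 and 8.76 in H460. The fall was 1.93-fold in A549 (-0.86, adjusted p = 5.54e-05) and 1.41-fold in H460 (-0.46, adjusted p = 0.00711), and the H460 call was lost with median-of-ratios scaling (-0.20, adjusted p = 0.181) and with limma voom on the recovered reads (-0.20, adjusted p = 0.227).

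The abundant endopeptidases CTSL and CTSB took another course. CTSL had 45.2, 44.9 and 45.7 FPKM in A549 controls and 68.4, 63.9 and 66.7 FPKM with ISP-I. All treated A549 libraries were above the controls (log2 change 0.54, SE 0.06, limma adjusted p = 0.000139). In H460 it had 181, 178 and 177 FPKM and then 142, 122 and 203. ISP-I library 3 was above the controls and the other treated libraries below them, and the change did not pass (-0.23, adjusted p = 0.31), whereas without that library it was -0.44 (adjusted p = 0.00536). CTSB rose slightly in A549, from 34.2, 34.7 and 41 to 44.6, 44.3 and 41.7 FPKM, with narrowly separate groups (0.25, adjusted p = 0.034), a call lost when any A549 library but control library 3 was left out (adjusted p from 0.0629 to 0.111). In H460, where it had 18.9, 19.2 and 17.4 and 16.5, 12.7 and 17.8 FPKM with overlapping groups, it did not pass (-0.24, adjusted p = 0.158) except without ISP-I library 3 (-0.34, adjusted p = 0.0370). The aspartic protease CTSD had 7.87 ± 0.852 and 7.84 ± 2.29 FPKM in H460 and 9.39 ± 2.28 and 9.3 ± 0.52 in A549, with overlap in each line and 95% intervals of -0.03 ± 0.42 and 0.01 ± 0.33 for the log2 change. CTSO, at about 1 FPKM, did not pass in either line (-0.33, adjusted p = 0.0879 in H460, 0.14, adjusted p = 0.409 in A549). CTSH, an aminopeptidase, fell 1.44-fold in A549, from 1.77 ± 0.095 to 1.23 ± 0.132 FPKM (-0.32, adjusted p = 0.00804), and was below the filter in H460, where controls had 0.172, 0.139 and 0.122 FPKM and treated libraries 0.0407, 0.0655 and 0.0294.

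**Figure D2:**
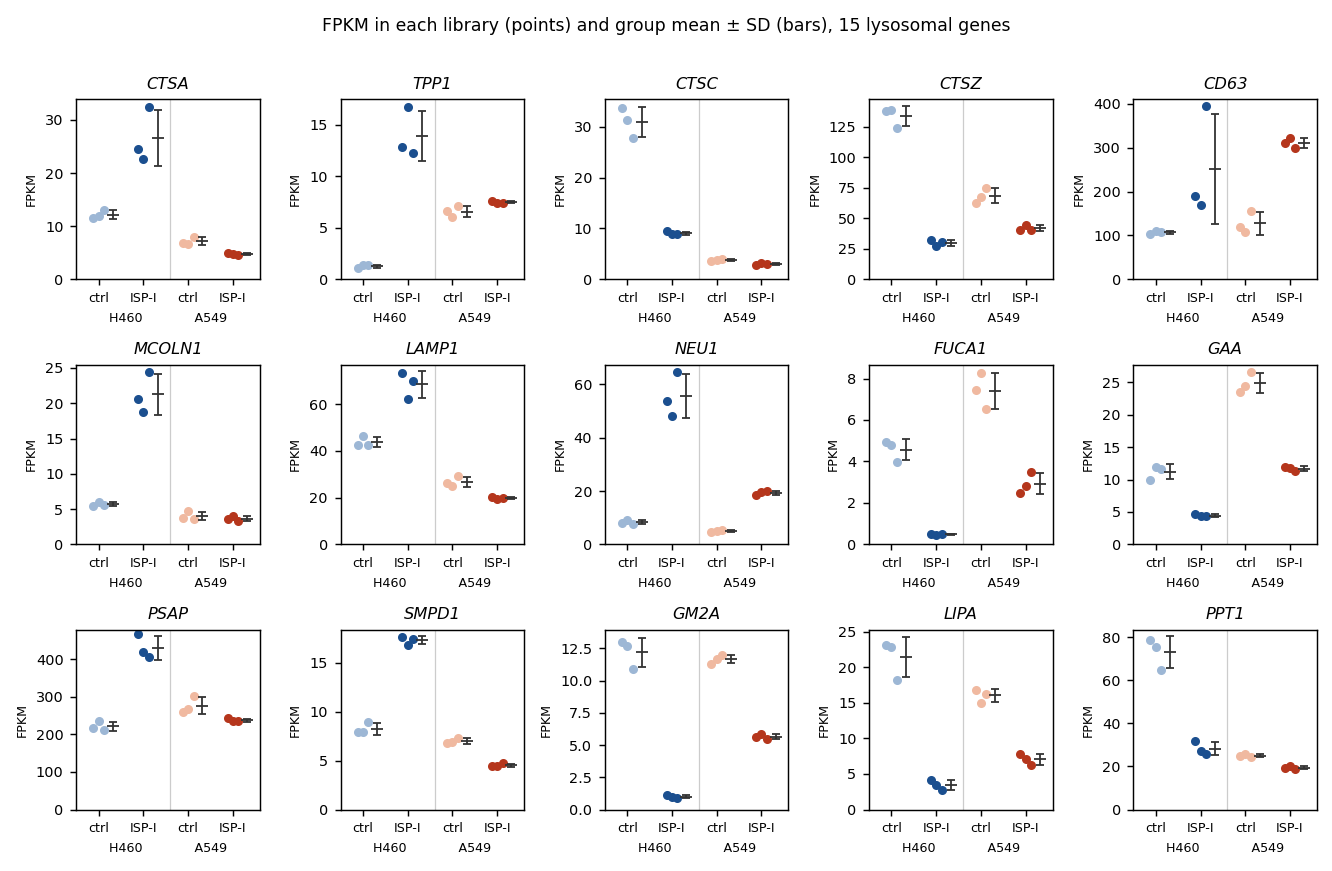
FPKM of 15 lysosomal genes in each library (points) with the group mean and SD (bars), for controls and ISP-I in H460 and A549, each gene on its own linear axis from 0. TPP1, MCOLN1 and PSAP are raised in treated H460 alone among the groups, CD63 and NEU1 in the treated groups of each line, and GM2A and FUCA1 are lowest in treated H460. The treated H460 libraries of CD63 are widely spread, with library 3 at 396 FPKM.

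Of the membrane proteins, CD63 rose past 2-fold in each line and MCOLN1 in H460. CD63 (chr12:55725323-55729707), a tetraspanin of late endosomes and exosomes, had 104, 111 and 107 FPKM in H460 controls and 191, 168 and 396 FPKM after ISP-I. All treated libraries were above the controls, but library 3 was far above the others (log2 change 1.12, SE 0.29, limma adjusted p = 0.00843). Without it the log2 change in H460 was 0.74 (adjusted p = 0.000216), below 2-fold. In A549 the values were 119, 107 and 157 FPKM in controls and 310.2, 322 and 299.6 after ISP-I. These groups were well apart, the mean being 2.43-fold higher (log2 change 1.29, SE 0.13, limma adjusted p = 8.49e-05).

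MCOLN1 (chr19:7522624-7534009) encodes TRPML1, a calcium channel of the lysosomal membrane. Its H460 levels were 5.43, 6.05 and 5.65 FPKM in controls and 20.6, 18.8 and 24.4 with ISP-I. The rise was 3.72-fold without overlap (log2 change 1.72, SE 0.13, limma adjusted p = 6.42e-06). In A549, with 3.75, 4.68 and 3.63 FPKM before and 3.65, 3.98 and 3.36 after, the groups overlapped (-0.10, adjusted p = 0.43).

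LAMP1 (chr13:113297239-113323672) and LAMP2, the main glycoproteins of the membrane, differed from each other. LAMP1 had 42.6, 46.4 and 42.5 FPKM in H460 controls and 73.4, 62.1 and 69.7 after ISP-I. It rose 1.56-fold with no overlap (log2 change 0.63, SE 0.12, limma adjusted p = 0.00157). In A549 it went the other way, from 26.1, 24.8 and 29 to 20.1, 19.3 and 19.8 FPKM. The treated A549 libraries were all lower, by 1.35-fold (log2 change -0.41, SE 0.07, limma adjusted p = 0.00176). LAMP2, needed for chaperone-mediated autophagy, had 14.2, 12.5 and 11.4 and 16.2, 19.9 and 14.6 FPKM in H460 and 14.7, 14.2 and 13.2 and 16.9, 17.5 and 16.8 in A549. It rose slightly and without overlap in each line (0.38, adjusted p = 0.0419 in H460, 0.27, adjusted p = 0.00915 in A549), and the H460 call was lost without control library 2 (adjusted p = 0.108) or 3 (0.145), without ISP-I library 1 (0.0824) or 2 (0.119), and with no filter on low values (0.0536). The A549 call was lost in the single fit of all 12 libraries (adjusted p = 0.0621).

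SCARB2 (chr4:76158737-76234536), or LIMP-2, is an abundant glycoprotein of the lysosomal membrane and was the membrane protein that fell in H460. Controls had 6.6, 5.52 and 5.59 FPKM and treated H460 cells 2.23, 2.35 and 1.91. The groups were apart by 2.73-fold (log2 change -1.13, SE 0.12, limma adjusted p = 4.87e-05). A549 had 5.61, 5.75 and 4.69 FPKM and 5.02, 4.33 and 4.62 FPKM with ISP-I, which overlapped (-0.16, adjusted p = 0.167), although without control library 3 it passed as lower (-0.24, adjusted p = 0.0141). The cystine exporter CTNS rose 1.62-fold in H460, from 5.0 ± 0.383 to 8.09 ± 0.835 FPKM (0.60, adjusted p = 0.00196), and had 8.01 ± 0.826 and 9.28 ± 0.414 in A549 (0.19, adjusted p = 0.0862). For CLN3 no change passed in H460 (0.05, adjusted p = 0.407).

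Most of the glycosidases and sulfatases fell, and the sialidase NEU1 was the exception with the largest rise. NEU1 (chr6:31857659-31862905) had 8.15, 9.15 and 7.75 FPKM in H460 controls and 53.9, 48.2 and 64.4 FPKM after ISP-I. The lowest treated library was several times the highest control, the mean 6.65-fold higher (log2 change 2.59, SE 0.14, limma adjusted p = 1.37e-06). In A549 its levels were 4.67, 5.14 and 5.38 FPKM in controls and 18.6, 19.5 and 19.9 after ISP-I. Here too the groups were far apart, by 3.82-fold (log2 change 1.75, SE 0.07, limma adjusted p = 1.18e-06), so NEU1 had the largest rise of the members in A549 and the second largest, after TPP1, in H460.

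The alpha-fucosidase FUCA1 (chr1:23845077-23868290) had the largest fall of this class. It had 4.93, 4.77 and 3.98 FPKM in H460 controls and 0.52, 0.47 and 0.495 FPKM after ISP-I. The fall was 9.21-fold with tight treated libraries (log2 change -1.89, SE 0.11, limma adjusted p = 1.72e-06). A549 libraries had 7.47, 8.26 and 6.53 FPKM in controls and 2.46, 2.84 and 3.48 FPKM with ISP-I. That 2.54-fold fall was also without overlap (log2 change -1.1, SE 0.12, limma adjusted p = 0.000115).

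Beta-galactosidase, GLB1 (chr3:32996609-33097202), had 10.3, 11.6 and 11.3 FPKM in H460 controls and 3.51, 3.05 and 2.83 after ISP-I, and 12.9, 14.4 and 16.3 and 6.92, 8.16 and 8.28 in A549. All treated libraries were below the controls, 3.53-fold in H460 (log2 change -1.55, SE 0.12, limma adjusted p = 7.18e-06) and 1.87-fold in A549 (log2 change -0.82, SE 0.10, limma adjusted p = 0.000253). The acid alpha-glucosidase GAA (chr17:80101556-80119881), lost in Pompe disease, had 9.92, 12 and 11.7 FPKM in H460 controls and 4.69, 4.33 and 4.31 after ISP-I, and 23.5, 24.4 and 26.6 and 11.9, 11.8 and 11.3 in A549. No groups overlapped, and the falls were 2.52-fold in H460 (log2 change -1.16, SE 0.12, limma adjusted p = 3.52e-05) and 2.13-fold in A549 (log2 change -1.03, SE 0.07, limma adjusted p = 1.12e-05). Without control library 3 the log2 change of GAA in A549 was -0.98, just under 2-fold. Arylsulfatase A, ARSA (chr22:50622754-50628173), which desulfates sulfatide, had 3.98, 4.89 and 4.55 FPKM and then 1.37, 1.03 and 1.92 in H460, and 5.15, 4.91 and 5.73 and then 2.98, 2.48 and 2.68 in A549. No group overlapped, the mean falling 3.11-fold in H460 (log2 change -1.18, SE 0.15, limma adjusted p = 0.000154) and 1.94-fold in A549 (log2 change -0.76, SE 0.09, limma adjusted p = 0.000182).

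NAGLU, GLA and a few other members of the class did not follow. NAGLU, an N-acetylglucosaminidase of heparan sulfate breakdown, had 10.6, 12.6 and 14 FPKM in A549 controls and 23.5, 23.8 and 25.2 FPKM after ISP-I. It rose 1.94-fold with well separated groups (log2 change 0.91, SE 0.10, limma adjusted p = 0.000112). In H460, at 6.44, 7.18 and 6.27 and 9.3, 6.67 and 8.95 FPKM, the groups overlapped (0.28, adjusted p = 0.109), and it passed with median-of-ratios scaling (0.53, adjusted p = 0.0115). GLA, alpha-galactosidase A of Fabry disease, had 54.9, 53 and 42.3 FPKM in H460 controls and 70.4, 64.8 and 73.4 after ISP-I, and 19.1, 18.3 and 22.6 and 14.6, 14.8 and 15.3 in A549. It rose 1.39-fold in H460 (0.48, adjusted p = 0.0138) and fell 1.35-fold in A549 (-0.40, adjusted p = 0.00449), and the H460 rise did not pass without control library 3 (0.36, adjusted p = 0.0597). IDUA, alpha-iduronidase, had 1.06, 1.56 and 1.22 FPKM in H460 controls and 0.483, 0.636 and 0.548 after ISP-I, and 3.86, 3.81 and 2.82 and 5.15, 4.29 and 4.3 in A549. SGSH, the heparan sulfamidase, had 6.28, 8.13 and 8.62 and 4.96, 4.51 and 4.54 FPKM in H460 and 4.56, 4.79 and 4.79 and 5.9, 5.63 and 5.73 in A549. No groups overlapped. IDUA and SGSH fell in H460 (-0.55 and -0.60, adjusted p = 0.00125 and 0.00357) and rose in A549 (0.32 and 0.24, adjusted p = 0.0477 and 0.0182). Their A549 rises and that of IDS were lost without single libraries, IDUA without control library 3 or any ISP-I library (adjusted p from 0.0543 to 0.167) and SGSH (0.0572 to 0.0691) and IDS (0.0910 to 0.110) without control library 1, ISP-I library 1 or ISP-I library 3. HEXA, the hexosaminidase subunit lost in Tay-Sachs disease, stayed under 1 FPKM in every group and rose in H460, from 0.214 ± 0.0519 to 0.50 ± 0.0209 FPKM (0.31, adjusted p = 0.00235). IDS rose in A549 (0.29, adjusted p = 0.0317) and had -0.21, adjusted p = 0.129 in H460. The remaining GUSB, MAN2B1, AGA and ARSB fell in each line, with log2 changes from -0.92 to -0.58 in H460 and from -0.68 to -0.47 in A549, and the beta-mannosidase MANBA fell in H460 (-0.34, adjusted p = 0.00899), though not with median-of-ratios scaling (adjusted p = 0.0622).

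The lipid class held the 2 largest falls in H460 on the log2(FPKM + 1) scale, while by the ratio of means FUCA1 lay between them. GM2A (chr5:151212150-151270440), the activator protein that lifts ganglioside GM2 out of membranes for degradation, had 13, 12.7 and 10.9 FPKM in H460 controls and 1.11, 0.975 and 0.869 FPKM after ISP-I. No library came near the other group, and the mean was 12.4-fold lower (log2 change -2.73, SE 0.12, limma adjusted p = 5.99e-07). In A549 it had 11.3, 11.7 and 12 FPKM and, with ISP-I, 5.62, 5.89 and 5.46. That fall was 2.06-fold as a ratio of means and just under 2-fold on the log2(FPKM + 1) scale (log2 change -0.93, SE 0.07, limma adjusted p = 1.56e-05).

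LIPA (chr10:89213569-89414557), the acid lipase that frees cholesterol and fatty acids, had 23.1, 22.9 and 18.1 FPKM in H460 controls and 4.14, 3.45 and 2.8 FPKM after ISP-I. The H460 groups were apart by 6.18-fold (log2 change -2.33, SE 0.15, limma adjusted p = 3.54e-06). A549 controls had 16.8, 15 and 16.2 FPKM and treated A549 cells 7.79, 7.09 and 6.27. All of these were lower too, by 2.27-fold (log2 change -1.08, SE 0.09, limma adjusted p = 2.74e-05). PPT1 (chr1:40072710-40097260), a thioesterase that removes palmitate from proteins, had 78.8, 75.6 and 64.9 FPKM in H460 controls and 31.6, 27.3 and 25.6 after ISP-I, and 24.7, 25.6 and 24.3 and 19.5, 20.1 and 18.6 in A549. It fell 2.59-fold in H460 (log2 change -1.34, SE 0.13, limma adjusted p = 3.44e-05) and 1.28-fold in A549 (log2 change -0.34, SE 0.06, limma adjusted p = 0.002), without overlap.

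PSAP (chr10:71816298-71851325), the member with the highest FPKM, and SMPD1 (chr11:6390440-6394998), acid sphingomyelinase, rose in H460. PSAP had 216, 235 and 213 FPKM in H460 controls and 466, 418 and 405 FPKM after ISP-I. The rise was 1.94-fold with no overlap (log2 change 0.95, SE 0.14, limma adjusted p = 0.000417). In A549 PSAP had 259.7, 267 and 303 FPKM and then 243, 235 and 237, with every treated library lower but an adjusted p that missed the threshold (-0.21, adjusted p = 0.0519), and passed without control library 3 (-0.15, adjusted p = 0.0134). SMPD1 had 7.94, 7.93 and 8.99 FPKM in H460 controls and 17.7, 16.8 and 17.5 FPKM after ISP-I. The treated libraries were close together and 2.09-fold higher (log2 change 0.98, SE 0.11, limma adjusted p = 5.68e-05). In A549 it fell from 6.77, 6.9 and 7.36 to 4.45, 4.47 and 4.73 FPKM, a 1.54-fold fall (log2 change -0.53, SE 0.07, limma adjusted p = 0.000409). PSAP and SMPD1 passed 2-fold in H460 with median-of-ratios scaling and with limma voom on the recovered reads.

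NPC2, the soluble carrier that hands cholesterol to NPC1, had 20.5, 17.4 and 22.8 FPKM in A549 controls and 34.2, 38 and 31.2 FPKM after ISP-I. It rose 1.7-fold there (log2 change 0.74, SE 0.11, limma adjusted p = 0.000635). In H460 it had 7.67, 7.75 and 7.22 FPKM in controls and 8.4, 8.27 and 21.5 after ISP-I. ISP-I library 3 alone was far above the controls, and the change did not pass (0.55, adjusted p = 0.142, and 0.13 with adjusted p = 0.288 without that library), although it did with median-of-ratios scaling (0.81, adjusted p = 0.0436). GALC, galactosylceramidase, fell in each line (-0.52, adjusted p = 0.00612 in H460, -0.60, adjusted p = 0.00531 in A549), in H460 not with median-of-ratios scaling (adjusted p = 0.0637). Acid ceramidase, ASAH1, fell 2.53-fold in H460, from 2.2 ± 0.119 to 0.87 ± 0.0774 FPKM (-0.78, adjusted p = 8.72e-05), and had 0.21, adjusted p = 0.132 in A549.

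Summed over the 42 genes, the level was higher in every treated library than in any control of the same line, while more members fell than rose. The summed FPKM was 1032 to 1120 in H460 controls and 1144 to 1503 after ISP-I, and 846 to 967 in A549 controls and 973 to 1004 after ISP-I. Leaving out PSAP, CD63 and CTSL, it was 535 to 596 and then 435 to 499 in H460, and 423 to 462 and then 370.2 to 384 in A549. Without these 3 genes the treated libraries were lower. Of the 3, CTSL had a lower mean in treated H460 (156 FPKM) than in controls (179). CTSZ was kept in, and its H460 mean went from 134 to 29.8 FPKM. That was about as large a fall as that of the remaining H460 sum, from a mean of 573 to 470. In A549 CTSZ went from 68.3 to 41.7 FPKM, and the remaining sum from 437 to 377. Proteases made up 37.2% ± 0.637 of the sum over the 42 genes in H460 controls and 20.6% ± 0.965 after ISP-I, and membrane proteins 16.7% ± 0.485 and 27.7% ± 5.71 (mean ± SD, n = 3). The lipid class went from 32.4% ± 0.530 to 38.4% ± 5.82 in H460, with ISP-I library 3 (31.7%) below the controls and the others (41.7% and 41.8%) above them. In A549 the share of proteases was 22.6% ± 0.255 and 19.0% ± 0.0117, that of membrane proteins 20.9% ± 1.38 and 36.8% ± 0.562, and that of the lipid class 41.3% ± 0.631 and 32.0% ± 0.315. CD63 made most of the membrane protein rise in each line. In H460 the mean of CD63 went from 107 to 252 FPKM and that of the class sum from 180 to 369. In A549 CD63 went from 128 to 310 FPKM and the class sum from 186 to 365. The shares are in FPKM and depend on the gene lengths of the table.

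**Figure D3:**
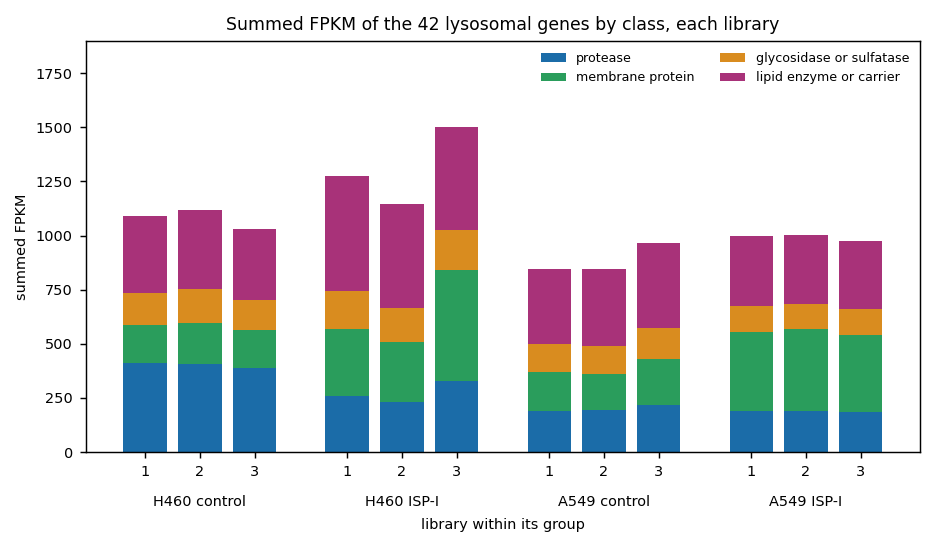
Summed FPKM of the 42 lysosomal genes in each library, stacked by class from 0, for the 4 groups. The protease part shrinks in treated H460. The membrane protein part grows in the treated groups of each line, mostly through CD63.

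Whether ISP-I changed a member by a different amount in H460 and A549 was tested with an interaction term (line by treatment) fitted to the 12 libraries together. Of 41 members tested, 10 had a positive difference (H460 minus A549) and 16 a negative one, where 18.6% and 34.7% of all genes did. With a log2 difference of more than 1 there were 6 positive (5.93% of all genes) and 5 negative (10.1% of all genes). The positive ones were TPP1 (2.54, SE 0.15, adjusted p = 1.27e-07), MCOLN1 (1.82, adjusted p = 1.85e-06), CTSA (1.54, adjusted p = 1.43e-05), SMPD1 (1.51, adjusted p = 4.18e-07), PSAP (1.17, adjusted p = 3.29e-05) and LAMP1 (1.04, adjusted p = 2.64e-05). The negative ones were GM2A (-1.8, SE 0.12, adjusted p = 2.66e-07), CTSZ (-1.43, adjusted p = 4.19e-06), CTSC (-1.42, adjusted p = 1.46e-06), LIPA (-1.25, adjusted p = 0.000107) and PPT1 (-1.0, adjusted p = 7.51e-05), all of which fell in each line and more in H460. LIPA and PPT1 were within 1 under median-of-ratios scaling and under quantile normalization, and the first of these gave 13 positive and 12 negative differences at any size. It moved the share of positive differences among all genes called from 34.9% to 53.6%.

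Set side by side by direction, 16 members fell in each line, among them GLB1, GAA, FUCA1, GM2A and LIPA, and CD63, NEU1 and LAMP2 rose in each. Of the 12708 genes tested in both lines, 21.4% fell in each and 17.7% rose in each. CTSA, LAMP1, GLA and SMPD1 rose in H460 and fell in A549 (1.57% of all genes did), and IDUA and SGSH did the opposite (3.82%). For these 6 the interaction passed as well, with log2 differences of 0.88 for GLA, -0.86 for IDUA and -0.85 for SGSH beside those given above. NEU1 rose more in H460 (0.84, adjusted p = 0.000518), and GLB1 (-0.72, adjusted p = 0.0014) and FUCA1 (-0.79, adjusted p = 0.00132) fell more there. Over the 40 members tested in each line, the changes correlated with Pearson r 0.625 and Spearman rho 0.601, a description across genes that share libraries within each line. Between control level and change the description was r -0.10 and rho -0.07 over 41 members in H460, and r 0.01 and rho -0.14 over 41 in A549.

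**Figure D4:**
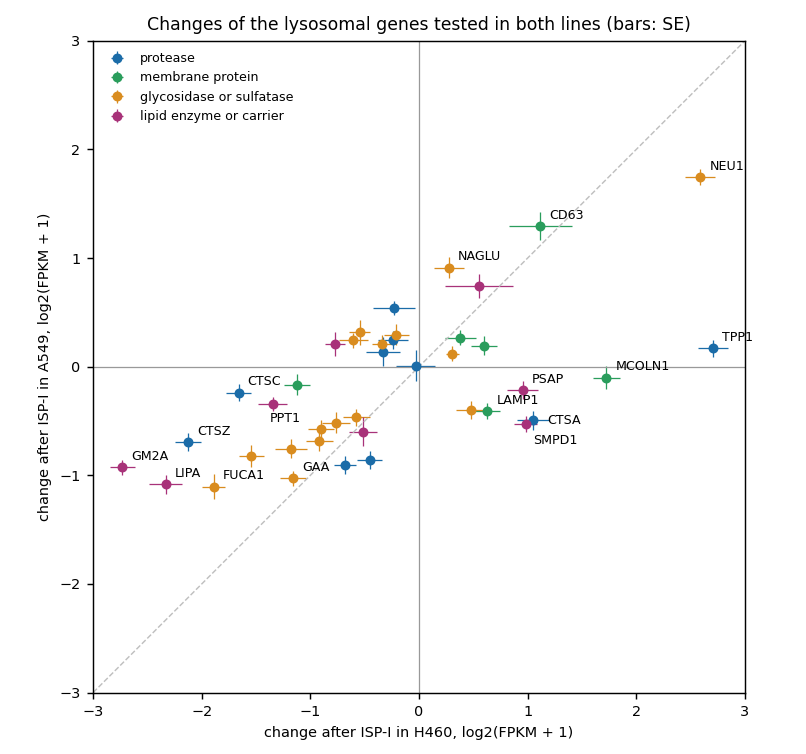
Change after ISP-I in H460 (horizontal) against A549 (vertical) for the 40 lysosomal genes tested in each line, on the log2(FPKM + 1) scale with SE bars and colours by class. The dashed line marks equal change. TPP1, MCOLN1, PSAP, SMPD1, CTSA and LAMP1 lie below it on the right, and GM2A, CTSZ, CTSC, LIPA and PPT1 above it on the left.

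Genes that act on lysosomal genes were read beside the members. The 11 genes listed as regulators held transcription factors and cofactors, and also RRAGD, FLCN, FNIP1 and FNIP2, which are signalling proteins. Of the 11, 10 were tested in each line, with 7 higher in H460 (27.6% of all genes were) against 6 higher and 2 lower in A549 (30.5% and 27.0%). The 7 were TFE3, MITF, PPARGC1A and these signalling proteins. RRAGD, a Rag GTPase on the lysosome, had 0.341, 0.491 and 0.474 FPKM in H460 controls and 10.3, 11.5 and 11.4 FPKM after ISP-I, and 1.2, 1.23 and 1.5 and 7.23, 6.88 and 7.36 in A549. It rose with wide separation in H460 (log2 change 3.07, SE 0.11, limma adjusted p = 2.69e-07) and A549 (log2 change 1.82, SE 0.08, limma adjusted p = 1.61e-06). FNIP1, partner of folliculin, rose from 2.06 ± 0.285 to 27.8 ± 8.24 FPKM in H460 (3.2, adjusted p = 2.95e-06) and from 4.13 ± 0.619 to 16 ± 0.93 in A549 (1.74, adjusted p = 5.21e-06). Folliculin, FLCN, rose from 1.79 ± 0.0593 to 8.68 ± 0.254 in H460 (1.8, adjusted p = 1.81e-06) and from 2.22 ± 0.416 to 6.95 ± 0.168 in A549 (1.31, adjusted p = 2.08e-05).

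The MiT factors themselves differed. MITF rose from 1.1 ± 0.148 to 6.94 ± 1.48 FPKM in H460 (1.9, adjusted p = 1.11e-05) and from 4.1 ± 0.493 to 17.3 ± 0.541 in A549 (1.85, adjusted p = 1.94e-06). TFE3, with the highest FPKM of them, had 56.8, 63.7 and 63.1 FPKM in H460 controls and 184, 164 and 177 after ISP-I, and 38.2, 37.3 and 44.6 and 61.7, 59.7 and 63.2 in A549. It rose 2.86-fold in H460 (1.5, adjusted p = 1.19e-05) and 1.54-fold in A549 (0.61, adjusted p = 0.000338), and the lines differed in this (0.89, adjusted p = 0.000128). TFEB had 1.73 ± 0.18 and 1.95 ± 0.177 FPKM in H460 (0.11, adjusted p = 0.343) and fell in A549, from 0.982 ± 0.393 to 0.293 ± 0.10 (-0.60, adjusted p = 0.0051). These are mRNA levels, and the activity of the factors was not measured here.

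**Figure D5:**
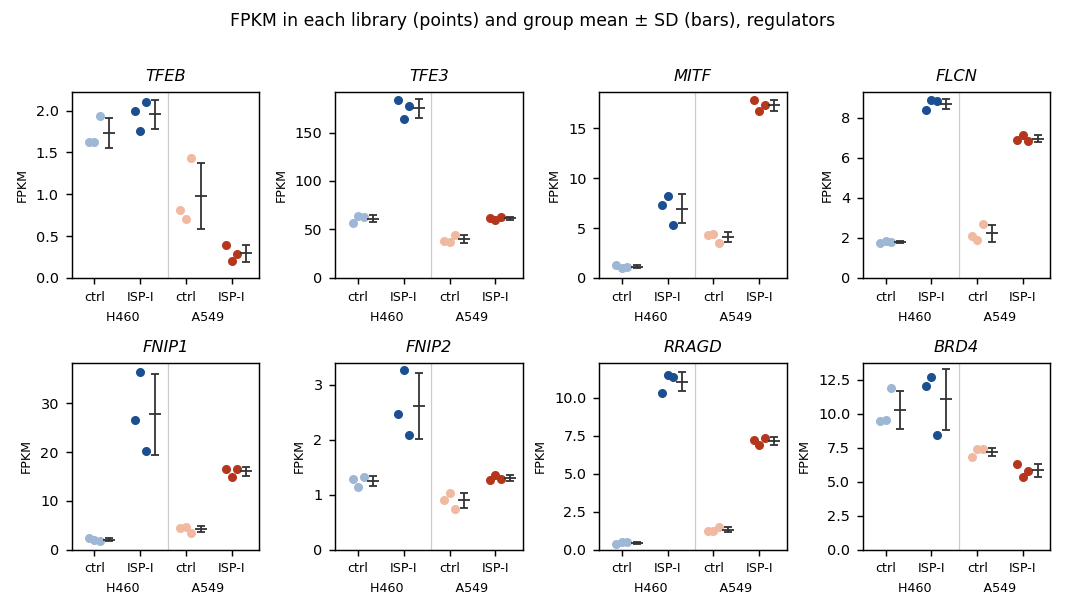
FPKM of 8 regulators of lysosomal genes in each library (points) with the group mean and SD (bars), each on its own linear axis from 0. RRAGD, FNIP1, FLCN and MITF are higher in the treated libraries of each line, and TFEB is lower in treated A549.

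Among 13 genes for sorting and maturation of lysosomal enzymes, H460 had 7 lower (41.5% of all genes were), whereas A549 had 2 higher and 5 lower (30.5% and 27.0%). SUMF2, a paralogue of the sulfatase-activating enzyme, fell from 18.2 ± 1.31 to 3.64 ± 0.467 FPKM in H460 (-2.05, adjusted p = 2.18e-06) and from 36.9 ± 2.69 to 18.6 ± 0.099 in A549 (-0.95, adjusted p = 1.6e-05). GNPTAB, the phosphotransferase that begins the mannose 6-phosphate tag, fell in H460 from 4.1 ± 0.634 to 0.933 ± 0.288 FPKM (-1.4, adjusted p = 4.92e-05) and had -0.16, adjusted p = 0.313 in A549. SORT1, the sorting receptor sortilin, fell in A549 from 5.99 ± 0.439 to 2.15 ± 0.136 FPKM (-1.15, adjusted p = 1.37e-05). It was also counted as lower in H460, though not past 2-fold. Of 6 cystatins, inhibitors of cysteine cathepsins, CSTB had 17, 15.6 and 22.5 FPKM in A549 controls and 54.4, 58.6 and 53.9 after ISP-I. It rose 3.03-fold there (1.56, adjusted p = 2.26e-05), while in H460 it had 15.1, 16.4 and 17.4 and 13.2, 10.7 and 29.4 FPKM (-0.01, adjusted p = 0.973), with ISP-I library 3 again the highest. CST6 was listed at 0 in every H460 control and had 2.36, 2.54 and 3.3 FPKM after ISP-I (adjusted p = 1.68e-06). In A549 CST6 was counted as higher too, though not past 2-fold.

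Another 38 lysosomal genes were counted in the same way. Of 35 tested in H460, 7 were higher and 22 lower (27.6% and 41.5% of all genes), and of 36 tested in A549, 7 were higher and 21 lower (30.5% and 27.0%), with medians of -0.72 and -0.48 beside -0.15 and 0.02 over all genes. PCYOX1, which breaks down prenylcysteines, fell from 24 ± 2.42 to 2.99 ± 0.0431 in H460 (-2.64, adjusted p = 6.15e-07) and from 24.5 ± 2.83 to 11.7 ± 0.435 in A549 (-1.0, adjusted p = 4.71e-05). NPC1, the membrane partner of NPC2, rose from 7.03 ± 0.429 to 23.4 ± 3.03 in H460 (1.6, adjusted p = 1e-05) and from 8.38 ± 0.154 to 20.3 ± 1.81 in A549 (1.18, adjusted p = 9.69e-06). DNASE2, the acid nuclease of lysosomes, fell from 7.07 ± 0.749 to 1.2 ± 0.208 in H460 (-1.88, adjusted p = 3.81e-06), as did PLD3, from 12.5 ± 0.587 to 3.89 ± 0.299 (-1.47, adjusted p = 6.81e-06). DNASE2 and PLD3 were also counted as lower in A549, though not past 2-fold.

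The CLEAR motif was searched in the promoters of the members. RefSeq promoters (GRCh38.p14, 250 bases before to 50 after the start) were found for 31 of 42 members. The core TCACGTGA was in promoters of 5 of these 31 genes (CTSA, LAMP1, MCOLN1, CLN3 and GAA; 16.1%) against 1.18% of all 27305 genes, the full palindrome, with a further G before and C after the core, in 2 (GAA and MCOLN1; 6.45% against 0.421%) and the E-box CACGTG, which lies within the longer motifs, in 10 (32.3% against 8.77%). Among the 15166 genes of the expression table with such a promoter, the shares were 1.69%, 0.659% and 11.0% in the same order. Each motif reads the same on both strands. The windows of 30 bases around the core matches are shown for the members that hold the core and moved past 2-fold or in opposite directions in the lines. For NEU1 and CD63, which rose in each line, the windows around their E-boxes are shown. The longest motif matched is in capitals. Further E-boxes without the core in the promoters of LAMP1 and CTSA are not shown.
MCOLN1 (chr19:7522598-7522627, plus strand): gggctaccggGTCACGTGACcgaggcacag
MCOLN1 (chr19:7522571-7522600, plus strand): accagaggcggTCACGTGAggggctctggg
GAA (chr17:80101493-80101522, plus strand): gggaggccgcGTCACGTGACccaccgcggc
GAA (chr17:80101538-80101567, plus strand): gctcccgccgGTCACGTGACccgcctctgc
CTSA (chr20:45891298-45891327, plus strand): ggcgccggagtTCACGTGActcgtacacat
LAMP1 (chr13:113297199-113297228, plus strand): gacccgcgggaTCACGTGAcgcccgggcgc
LAMP1 (chr13:113297226-113297255, plus strand): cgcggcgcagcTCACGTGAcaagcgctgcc
NEU1 (chr6:31862930-31862959, minus strand): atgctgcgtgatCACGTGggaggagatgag
CD63 (chr12:55729172-55729201, minus strand): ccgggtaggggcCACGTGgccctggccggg

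Holders of the core did not share a direction. In H460, CTSA, LAMP1 and MCOLN1 were higher, GAA was lower and CLN3 did not pass. In A549, CTSA, LAMP1 and GAA were lower, MCOLN1 did not pass and CLN3 was not tested. GAA, which carries the full palindrome at 2 places, fell 2.52-fold in H460, while MCOLN1, with the same palindrome, rose 3.72-fold. Of the 26 members with a promoter but no core, 25 were tested in H460, where 6 were higher with 15 lower, and 26 in A549, where 6 were higher with 16 lower. Among the other lysosomal lists, the 8 genes with the core gave 1 higher and 6 lower in H460, and 5 lower in A549. For comparison, 27.6% of all genes tested in H460 rose while 41.5% fell. Rises made up 30.5% of all genes tested in A549, with falls at 27.0%. Whether genes with the core differed from these shares or from genes without it was not tested. A match is a string in a window, and no binding was measured here.

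Markers of other cell types were read beside these genes. Of the epithelial markers, KRT8, KRT18 and KRT19 were high in each line, EPCAM and CDH1 were at or near 0 in H460, and the summed level was 356 to 432 FPKM in H460 controls and 924 to 1252 in A549 controls. After ISP-I it was 327 to 415 in H460, where of 3 markers tested KRT19 fell past 2-fold (-1.08) and KRT18 rose (0.90). In A549 it was 628 to 659, and 4 of the 5 fell, CDH1 past 2-fold (-1.75, adjusted p = 2.74e-06). The part of these marker changes in the lysosomal results was not tested. The macrophage and leucocyte list of 5 genes summed to 5.18 to 6.53 FPKM in H460 controls and 3.21 to 4.39 after ISP-I, and to 2.0 to 2.69 and 7.09 to 7.61 in A549. PTPRC was at 0.0144 FPKM or less in every group mean and FCGR3A at 0.0219 or less, while ITGAM rose in each line (1.64, adjusted p = 1.45e-06 in H460, 1.82, adjusted p = 9.67e-07 in A549) and CD14 fell (-1.62, adjusted p = 2.48e-05 and -0.85, adjusted p = 0.000687). Fibroblast markers summed to at most 3.45 FPKM and endothelial markers to at most 0.368 in any library.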

How the data were processed

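Total RNA of 12 samples was sequenced by the authors as paired-end libraries on an Illumina instrument. According to the study's methods and the submitters' processing notes, reads were checked with FastQC, mapped to hg38 with HISAT2 and counted per gene with HTSeq 0.9.1, and the authors deposited the values as FPKM. The annotation version, the counting mode and the strand setting are not given in the sources used here. Columns were tied to groups by name. The names number the libraries of a line from 1 to 6, controls first, and these numbers were not tied to the replicate numbers of the labels.

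The 42 members and the other gene lists were chosen with earlier results of these data known. Of 19973 genes, 1924 had no reads in any library, and 4 lines that were pieces of an overlong cell were left out. Whole reads were recovered for 100% of values within 0.02 reads. The depth of 14225849 to 17874422 reads limits the precision of genes with few reads, and floors of 3 reads cover counting error only.

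limma 3.58.1 (R 4.3.3, lmFit and eBayes with trend) was run on log2(FPKM + 1) for genes averaging at least 0.1 FPKM in the fitted libraries, with Benjamini-Hochberg adjustment over all genes. Each line was fitted with its 6 libraries, and the interaction and the control groups with all 12. Calls used an adjusted p under 0.05, with or without a fold over 2 on the log2(FPKM + 1) scale. The fits were tested on simulated data with large changes in a small part of the genes. That simulation did not cover small changes, a shift of most genes or libraries that stand apart. Tables and plots were made with Python 3.11.15, pandas 2.3.3, numpy 2.4.6 and matplotlib 3.10.9. Alternatives were a pseudocount of 0.1, a filter at 1 FPKM or none, median-of-ratios scaling, quantile normalization, limma voom on recovered reads (at least 10 in 3 libraries), a single fit of all libraries and leaving out each library. The length of the MANE Select transcript and a block of the column numbers were tried after seeing the data.

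Values in every library are given for the 2 largest rises and falls of each class and line among members that passed, and for members past 2-fold in a line or in the interaction. CTSH, IDUA, SGSH and CLN3 beyond that, and TFEB, PTPRC and FCGR3A outside the rule for other lists (past 2-fold, at most 6 a list by smallest p), were chosen after their values were seen. Some genes that the rule selects from the other lists are not reported here.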

Additional observations from a re-analysis of the deposited data

Results flagged for a closer look

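For 11 lysosomal genes the ISP-I change differed between H460 and A549 by more than 1 on the log2(FPKM + 1) scale, by the limma test of the interaction over all 12 libraries, and these are listed for a closer look (each value is H460 minus A549). The difference was 2.54 for TPP1, 1.82 for MCOLN1, 1.54 for CTSA, 1.51 for SMPD1, 1.17 for PSAP and 1.04 for LAMP1. It was -1.80 for GM2A, -1.43 for CTSZ, -1.42 for CTSC, -1.25 for LIPA and -1.0 for PPT1. CTSA, LAMP1 and SMPD1 passed in opposite directions in the lines, and GM2A, CTSZ, CTSC, LIPA and PPT1 fell in each.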

How the results depend on the processing

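Of 2137 values for single members under the alternatives, 2018 kept their direction and their side of the threshold, 83 lost a call, 19 gained one and 17 turned sign, none of the latter called. For the interaction and the control groups only members called in the main fit were followed, so calls gained there were not counted. Past 2-fold, 5 members were higher in H460, 8 with limma voom, and 3 to 6 when 1 library was left out, the 3 without ISP-I library 3. In A549, 3 were lower, 5 with a pseudocount of 0.1 and 5 with limma voom, and 2 to 3 with a library left out. At any fold 10 were higher in A549, and 6 to 10 with a library left out. Negative differences between the lines past 1 numbered 5, but 10 with a pseudocount of 0.1, 3 with median-of-ratios scaling and 3 with quantile normalization, and 4 to 7 with a library left out. The cause was not tested, except that a smaller pseudocount draws low genes less toward 0. Signs turned in H460 for CTSB (0.0253 with median-of-ratios scaling, 0.0417 with voom), CTSL (0.0499 and 0.0659), IDS (0.0406 with quantile normalization) and CTSD (0.221 with median-of-ratios scaling, 0.104 with quantile normalization, 0.255 with voom, -0.234 to 0.0896 with a library left out), and in A549 for CTSD (-0.0219 with median-of-ratios scaling, -0.0249 with quantile normalization, -0.0022 with voom, -0.129 to 0.176 with a library left out). Within a line the control and treated columns share no number (1 to 3 and 4 to 6), so no replicate block was fitted there. Across the lines, libraries with the same column number did not all deviate together (correlations of deviations from -0.571 to 0.473), and with a replicate block of these numbers, added after seeing the data, 9 differences were positive and 16 negative, with 6 and 5 past 1, while 15 members were higher and 14 lower in H460 controls. The calls lost were CTSB and CTNS for the difference and IDS, PSAP and SMPD1 for the controls. Depth limits CLN3 and, in H460, CTSH.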
